A study of Homo sapiens with 6 samples.

Results

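The genes described here are those at which H3K27me3 was compared with input chromatin in G401 cells after MAK683. G401 is a cell line from a malignant rhabdoid tumor without SMARCB1, a core subunit of the SWI/SNF chromatin remodeler, and MAK683 is a small molecule that binds EED and inhibits PRC2. Cells received either DMSO or MAK683 at 3 µM for 3 days, and each treatment gave 1 library of H3K27me3, 1 of H3K4me3 and 1 of input, that is, chromatin sequenced without an antibody. Both treatments used the same line, so the loss of SMARCB1 was shared by all 6 libraries, and a result from a single cell line cannot be extended to other tumors. A gene was included where the DMSO and MAK683 inputs together held at least 100 counts, which was the case for 21263 of 56638 genes in the table, while 35375 genes were below this limit. Just inside it, KPRP had 100 summed input counts and a log2 ratio to input of 1.21 and RP11-389O22.1 had 100 and -0.41. Just outside it, RP11-51F16.8 had 99 and -0.85 and ZNF112 had 99 and -0.25.

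PRC2 places methyl groups on lysine 27 of histone H3 through its catalytic subunit EZH2 or EZH1, with EED and SUZ12 as the other core subunits. EED also binds H3K27me3 that is already present and thereby stimulates the enzyme, and the pocket used for this is the one that MAK683 occupies. H3K27me3 marks developmental regulators that are silent in a given lineage, often at CpG islands, and it also covers broad silent domains over tissue-restricted genes. Active promoters carry H3K4me3, and promoters with both modifications are called bivalent.

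Each value is the log2 ratio of H3K27me3 to input of the same treatment, each as a share of its library total in CPM, with 0.05 CPM added to both. A ratio of 0 therefore means that a gene took the same share of the H3K27me3 reads as of the input reads. The methods of the study describe normalization to a Drosophila spike-in, but the factors were not used here, and dividing by the library total removes any single factor per library, so the ratio describes how the remaining H3K27me3 reads were distributed and not how much H3K27me3 the cells held. Reads were counted per gene, and a signal that is narrow is diluted in a long gene. Library totals were between 13308099 and 21281877 counts, the lowest being H3K27me3 in MAK683 and the MAK683 input having 19514289. SMARCB1, which this line lacks, had 0 input counts in both treatments. With 1 library per group no difference has a replicate check, no test between treatments was made, and the 95% intervals given for genes are exact Clopper-Pearson intervals that cover counting error only. The median half-width of these intervals was 0.26 on the log2 scale, and it was 0.59 for genes with 20 to 100 MAK683 input counts and 0.11 for genes with at least 1000.

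After MAK683, a minority of genes stood clearly above input. The median ratio over the 21263 genes was -0.56 (95% rank interval -0.57 to -0.55), and 6070 genes (28.5%) had a ratio above 0. A ratio at least 2-fold above input was found for 1427 genes, or 6.71% (exact interval 6.38 to 7.06%), and a ratio at least 2-fold below input for 2142 genes, or 10.1%. The counting interval lay wholly above input for 4935 genes (23.2%), wholly below it for 13071 (61.5%) and included it for 3257 (15.3%). As a measure of the noise of the assay without an antibody, the MAK683 input and the DMSO input differed by at least 2-fold in either direction at 24 genes (0.113%). The 1427 genes held 12.3% of the H3K27me3 counts of all 21263 genes but 5.36% of the input counts. The counts of genes depend on where input is set: with the median ratio placed at 0, 4050 genes were at least 2-fold above and 180 at least 2-fold below. With the demand that the near end of the counting interval reach 2-fold, 709 genes were above and 212 below.

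**Figure D1:**
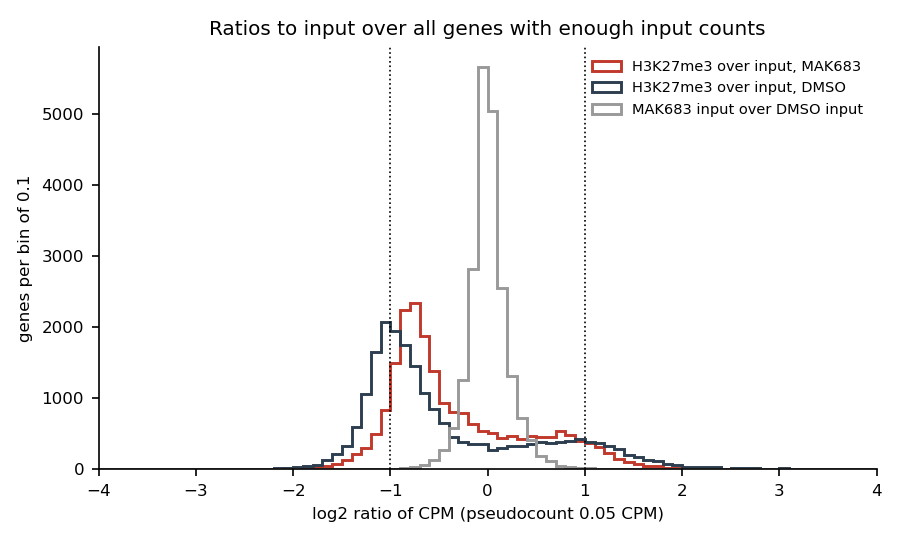
Number of genes per bin of 0.1 (vertical axis) by log2 ratio (horizontal axis) for H3K27me3 over input in MAK683, the same in DMSO, and the MAK683 input over the DMSO input, with dotted lines at 2-fold. Both H3K27me3 curves have a main peak below 0 and a broad shoulder to the right, and the main peak of the MAK683 curve lies closer to 0 than that of the DMSO curve (medians -0.56 and -0.75).

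In DMSO the same measure placed 2278 genes (10.7%) at least 2-fold above input, around a median of -0.75. The MAK683 set lay largely within it: 1313 genes were above in both treatments, which is 92.0% of the MAK683 set and 57.6% of the DMSO set. Of the 1427 genes, 1136 (79.6%) had a lower ratio in MAK683 than in DMSO, and the median of the 1427 was 1.21 in MAK683 against 1.45 in DMSO. The study reported a massive loss of H3K27me3 across the genome of G401 after MAK683. The ratios here are shares of each library, so they do not show how much H3K27me3 remained at a gene. Of all 21263 genes 8502 (40.0%) had a lower ratio in MAK683, which is the background for the counts of genes lower in MAK683 given for the lists. Another 965 genes were 2-fold above input in DMSO but not in MAK683. Their MAK683 median was 0.84, 957 of them had a ratio above 0, and the lowest was -0.67. The 114 genes above in MAK683 alone were mostly near the limit in DMSO, where their median was 0.86, 112 were above 0 and the interval of 84 reached 2-fold. Across genes, which are not independent replicates and share library depth, the ratios of both treatments had a Spearman rho of 0.77. The DMSO and MAK683 ratios come from different input libraries, so they share no control.

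**Figure D2:**
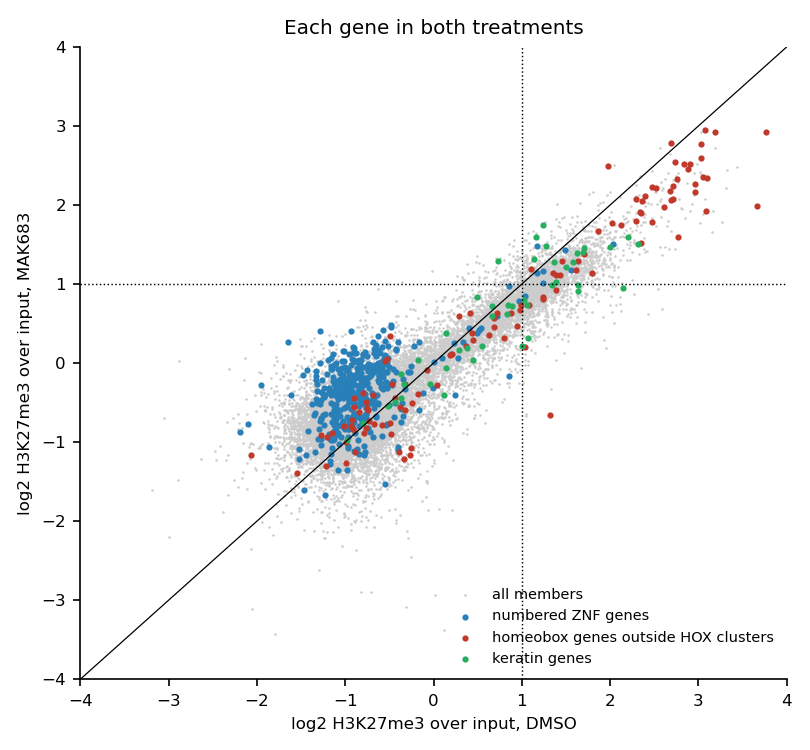
Log2 H3K27me3 over input in DMSO (horizontal axis) and in MAK683 (vertical axis), 1 point per gene, with the line of equal values, dotted lines at 2-fold above input, and 3 gene lists in color. Homeobox genes reach the upper right corner, mostly below the line of equal values (85 of 113 lower in MAK683), keratin genes lie along the middle and upper range, and numbered ZNF genes form a cloud at low ratios above the line (375 of 431 higher in MAK683).

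The genes that stood highest after MAK683 were nearly all developmental transcription factor genes. Among protein-coding genes with at least 50 MAK683 input counts, the 10 highest were RAX, NKX1-1, BSX, IRX4, SLC32A1, FOXA2, LHX5, TLX3, EMX2 and EN1. RAX, a homeobox gene of the early eye field (chr18:56934267-56941318 on GRCh37), had 537 H3K27me3 and 103 input counts in MAK683 and 817 and 78 in DMSO. Its log2 ratio was 2.92 in MAK683 (2.63 to 3.25), a 7.64-fold excess over input, and 3.19 in DMSO. NKX1-1, another homeobox gene (chr4:1396720-1400230), had 376 and 72 counts in MAK683 and 525 and 33 in DMSO, giving 2.92 (2.57 to 3.32) and 3.77 (3.30 to 4.36). For RAX the intervals of the treatments overlap, and for NKX1-1 they share only the stretch from 3.30 to 3.32. The input share of NKX1-1 was 0.9 higher in MAK683 on the log2 scale, and the part of this in the difference was not tested. BSX, a homeobox gene of the hypothalamus, stood at 2.78 after MAK683 and 2.69 in DMSO, and FOXA2, a forkhead gene of endoderm and floor plate, at 2.72 and 2.57. IRX4, which acts in the heart ventricle, was at 2.77 and 3.03. SLC32A1, which encodes the vesicular GABA transporter, was the only one of the 10 that does not encode a transcription factor and stood at 2.72 and 3.19. The remaining 4 (LHX5, TLX3, EMX2 and EN1, all homeobox genes of the nervous system) had ratios between 2.52 and 2.59 in MAK683 and between 2.74 and 3.03 in DMSO. PDX1, a homeobox gene of the pancreas with 257 H3K27me3 and 48 input counts in MAK683, was at 2.95 (2.52 to 3.45), the highest ratio of the homeobox list.

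The promoters of the genes at either end and of a keratin gene described further on are shown next. H3K27me3 was counted over whole genes and not over these promoter windows by themselves, so its level on these bases alone was not measured. By the coordinates given, the RAX window lies inside the RAX gene. Each line gives the 250 bases upstream of the start of the Ensembl canonical transcript in GENCODE release 44 on GRCh37, 5′ to 3′ on the strand of the gene, with each CpG dinucleotide in capitals. RAX and NKX1-1 are the highest genes, KRT2 is the highest of the keratin run, and ALKBH7 is the lowest protein-coding gene whose promoter window overlaps no annotated exon, since those of RPL8, UROD, PTOV1 and SLC50A1, which had lower ratios, overlap one.
RAX (chr18:56940687-56940936, minus strand): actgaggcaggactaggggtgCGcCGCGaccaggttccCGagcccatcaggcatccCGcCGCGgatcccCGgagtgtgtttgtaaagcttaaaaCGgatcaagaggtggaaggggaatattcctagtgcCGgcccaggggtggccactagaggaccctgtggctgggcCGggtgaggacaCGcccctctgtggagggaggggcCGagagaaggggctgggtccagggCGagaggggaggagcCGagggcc
NKX1-1 (chr4:1400231-1400480, minus strand): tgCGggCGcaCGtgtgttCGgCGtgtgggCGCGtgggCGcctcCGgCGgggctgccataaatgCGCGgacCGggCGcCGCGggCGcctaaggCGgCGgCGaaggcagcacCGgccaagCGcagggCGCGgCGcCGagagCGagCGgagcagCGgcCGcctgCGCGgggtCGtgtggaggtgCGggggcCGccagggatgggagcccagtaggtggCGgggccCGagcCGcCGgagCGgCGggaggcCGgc
KRT2 (chr12:53045996-53046245, minus strand): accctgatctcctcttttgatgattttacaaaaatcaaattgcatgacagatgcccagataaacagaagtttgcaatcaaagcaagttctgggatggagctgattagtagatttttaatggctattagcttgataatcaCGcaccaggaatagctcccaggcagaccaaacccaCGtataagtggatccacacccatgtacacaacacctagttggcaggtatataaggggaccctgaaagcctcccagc
ALKBH7 (chr19:6372555-6372804, plus strand): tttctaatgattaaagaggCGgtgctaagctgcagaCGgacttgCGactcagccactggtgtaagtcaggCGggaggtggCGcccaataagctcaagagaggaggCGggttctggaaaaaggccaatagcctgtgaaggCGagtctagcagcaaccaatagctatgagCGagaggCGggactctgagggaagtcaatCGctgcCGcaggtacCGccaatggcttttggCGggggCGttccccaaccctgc
The 250 bases held 15 CpG at RAX and 42 at NKX1-1, 2 at KRT2 and 14 at ALKBH7. Of all 14780 promoters of protein-coding genes with a window, 66.8% held at least as many as RAX, 2.39% as many as NKX1-1, 95.2% as many as KRT2 and 69.2% as many as ALKBH7. Genes above input thus had promoters with many and with few CpG.

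Of the gene lists, those of developmental transcription factors had the largest share above input. Over their 204 genes with enough input counts, 72 (35.3%) were at least 2-fold above input and 17 (8.33%) at least 2-fold below. Over all genes these shares were 6.71% and 10.1%. The median of the 204 was 0.31 against -0.56 over all genes. Homeobox genes outside the HOX clusters contributed most, with 46 of 113 above (40.7%), a median of 0.572 (0.099 to 1.111) and a DMSO median of 0.805. Of the list 10 genes (8.85%) were 2-fold below input, against 10.1% of all genes. Among these 10 were RAX2, a photoreceptor homeobox gene (-1.39), and SIX4 (-1.30). PAX genes, regulators of segment and organ identity, had 4 of 8 above: PAX1 at 2.12, PAX9 at 1.66, PAX7 at 1.26 and PAX3 at 1.22. All 8 had a lower ratio in MAK683 than in DMSO, and PAX2, a gene of the developing kidney, stood at -0.79 with H3K4me3 above input by 1.15 on the log2 scale. GATA4, GATA3 and GATA6 were above at 1.60, 1.18 and 1.02, while GATA2, GATA5 and GATA1 were at -0.60, -0.77 and -1.13. GATA4, a regulator of heart and endoderm (chr8:11534468-11617511), was also the highest of all genes with at least 1000 MAK683 input counts. It had 2915 H3K27me3 and 1413 input counts in MAK683 and 5242 and 1067 in DMSO, so its ratio of 1.60 (1.5 to 1.69) was below the 2.11 (2.01 to 2.21) of DMSO with intervals that did not overlap.

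Smaller transcription factor lists were mixed. Forkhead genes had 7 of 29 above, led by FOXA2 (2.72), FOXI2 (2.37), FOXF1 (1.89) and FOXF2 (1.77), but their median was -0.47. FOXF1 and FOXF2, which act in mesenchyme, had DMSO ratios of 3.05 and 3.02. Their input shares were 0.42 and 0.72 higher in MAK683 on the log2 scale, and the part of this in the differences was not tested. T-box genes had 5 of 15 above, led by TBR1 of the cortex (1.58), T of the early mesoderm (1.52), TBX5 of heart and forelimb (1.41) and TBX3 (1.23). Lineage bHLH genes had 4 of 17 above, NEUROD2 (2.04), NHLH2 (1.21), TAL1 (1.13) and FIGLA (1.01), and 15 of 17 were lower in MAK683 than in DMSO. Their median lay 0.18 above that of all genes on the log2 scale, and 1.66 above it with the 38 genes that a limit of 20 summed input counts admits. Among SOX genes SOX4 was the only one of 7 above, at 1.84 against 2.85 in DMSO. For the HOX clusters only 9 of 39 genes had enough input counts. HOXD13 (2.29) and HOXD11 (1.96) were above, HOXB7 (0.69) and HOXD10 (0.55) were between, and HOXC4 (-1.09) and HOXB13 (-1.83) were below. The HOX median lay 1.03 above that of all genes, and with the 21 genes that a limit of 20 admits it lay at -0.054 relative to it.

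**Figure D3:**
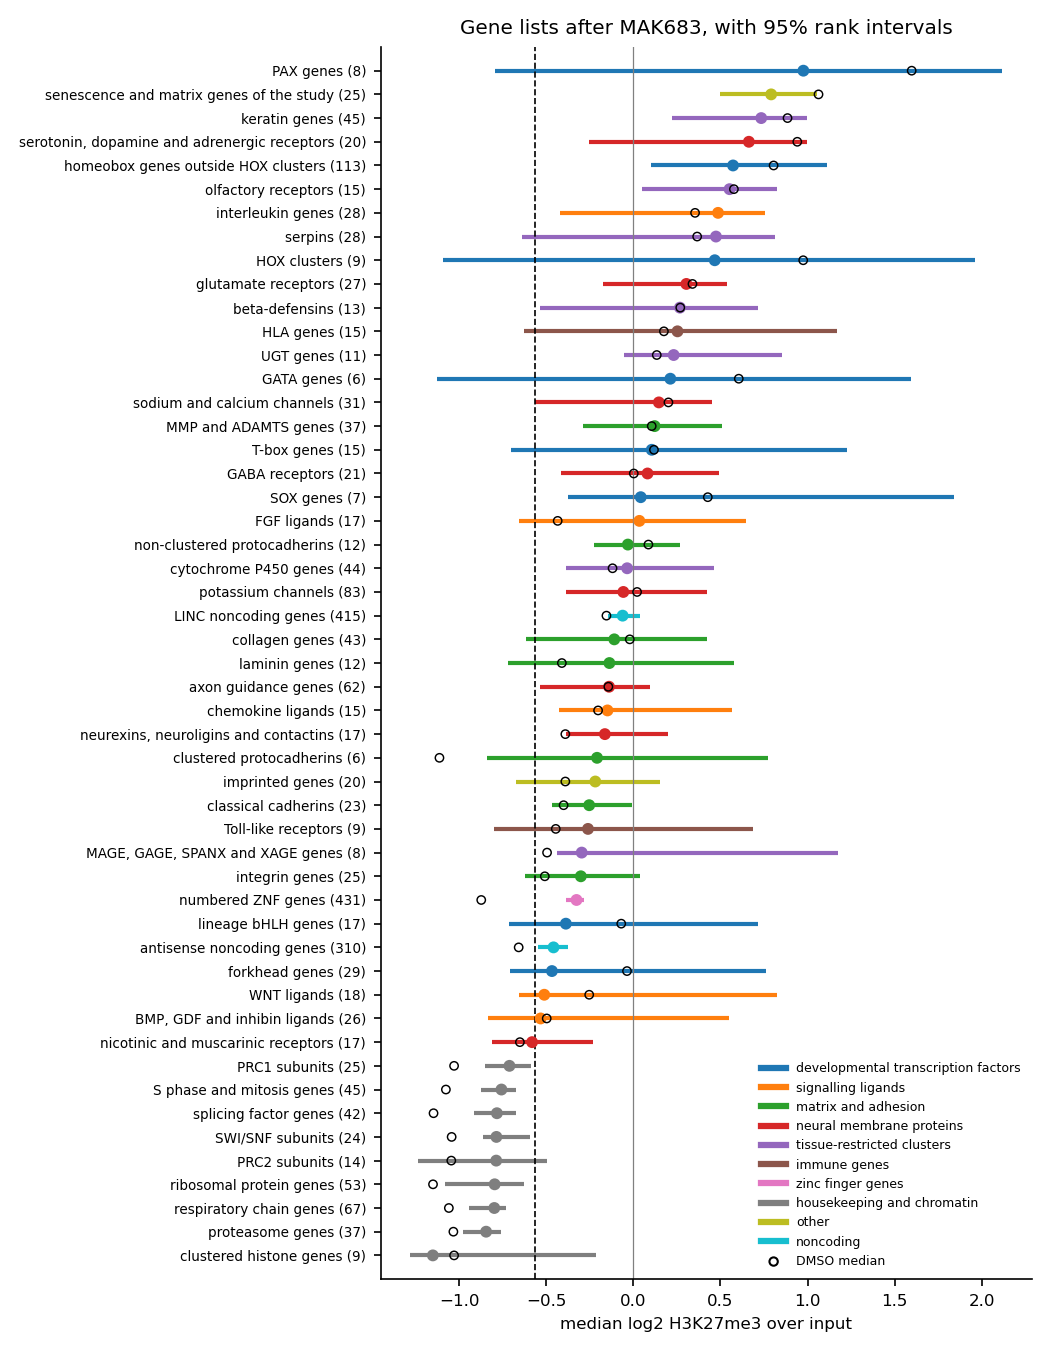
Median log2 H3K27me3 over input of each gene list with at least 6 genes (number of genes in parentheses) after MAK683, with bars for the 95% rank interval, colors for the role of the list and open circles for the DMSO median. The dashed line is the median of all genes (-0.56). PAX, keratin and homeobox genes lie to the right, and the lists of chromatin subunits, ribosomal proteins and other housekeeping genes lie to the left of the dashed line.

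Clustered genes for tissue-restricted products formed a second group above input. They comprise keratins, serpins, cytochrome P450 enzymes and the like, with a median of 0.34. Of 169 genes 35 (20.7%) were at least 2-fold above input and 4 (2.37%) below, against 6.71% and 10.1% of all genes. Keratin genes, which encode the intermediate filaments of epithelia and hair, had 15 of 45 above (33.3%), none below, and a median of 0.734 (0.223 to 0.995) against 0.885 in DMSO. The highest were KRT34 of hair at 1.75, KRT27 of the inner root sheath at 1.60, KRT2 at 1.59 and KRT6A at 1.51. KRT8, a keratin of simple epithelia, was the lowest at -0.98, with H3K4me3 at 1.70. Serpins had 7 of 28 above, led by SERPINA12 (1.51), SERPINA9 (1.39), SERPINA1, which encodes alpha-1-antitrypsin (1.24), and SERPINA10 (1.22). Cytochrome P450 genes had 9 of 44 above, with CYP2A13 (1.83), CYP1B1 (1.5), CYP2B6 (1.30) and CYP19A1, the aromatase gene (1.26), in front. None of 13 beta-defensin genes and none of 11 UGT genes passed 2-fold, but the highest of each were close to it, DEFB121 at 0.87 and UGT3A2 at 0.97. Of 402 olfactory receptor genes 15 had enough input counts, with a median of 0.55, and 2 were above.

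The longest run of neighboring genes above input was a block of 10 keratin genes on chr12:52840435-53097308 (257 kb). In chromosome order they were KRT6B, KRT6C, KRT6A, KRT5, KRT71, KRT74, KRT72, KRT2, KRT1 and KRT77, type II keratins of epidermis and hair follicle. Their MAK683 ratios lay between 1.02 (KRT71) and 1.59 (KRT2), a range of about the size of their counting intervals, with 61 to 226 input counts per gene. In DMSO they lay between 0.73 (KRT72) and 2.32 (KRT6A). KRT6A had 176 H3K27me3 and 90 input counts in MAK683 and 340 and 59 in DMSO, so that its ratio was 1.51 (1.15 to 1.90) against 2.32. KRT72 was the exception with 378 and 226 counts in MAK683 and 453 and 239 in DMSO, at 1.29 (1.05 to 1.54) against 0.73. KRT6A, KRT6B and KRT6C are close copies of each other, and how the counting treated reads that map to more than 1 of them is not given in the sources used here. H3K4me3 was low throughout the block, with 0.07 as the highest of the 10 ratios to input. Of the 15 keratin genes above input none had H3K4me3 2-fold above input.

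**Figure D4:**
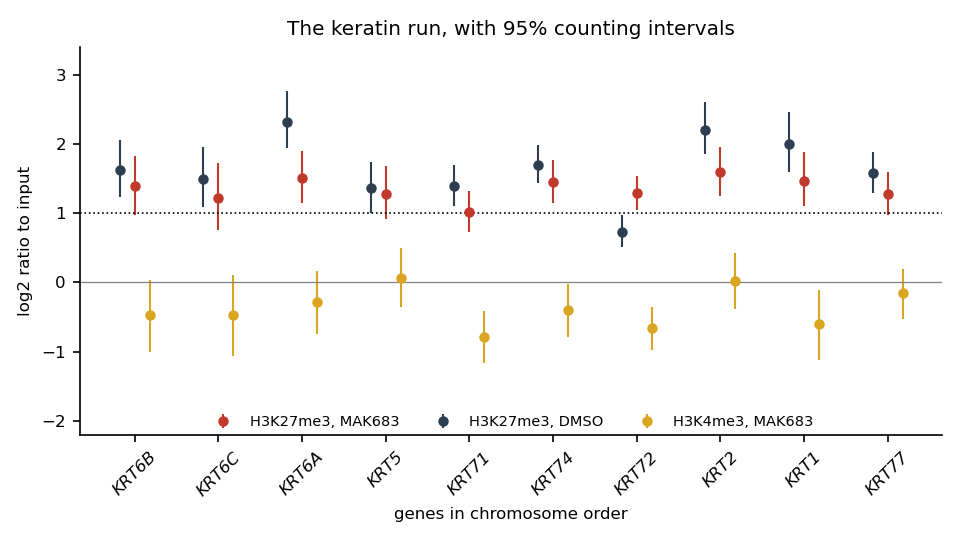
Log2 ratio to input (vertical axis) of H3K27me3 in MAK683 and DMSO and of H3K4me3 in MAK683 for the 10 genes of the keratin run in chromosome order, with 95% counting intervals and a dotted line at 2-fold. All 10 MAK683 H3K27me3 points lie above the dotted line (1.02 to 1.59), all 10 H3K4me3 points lie near or below 0, and KRT72 alone has a higher H3K27me3 point in MAK683 than in DMSO.

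Such runs were counted over the 16219 genes with enough input counts and a position in the annotation. Other genes were passed over and did not break a run, so the genes of a run need not be immediate neighbors. Of 979 genes above input, 511 stood alone, 120 pairs stood side by side, and 228 (23.3%) lay in 61 runs of at least 3 genes. In DMSO there were 138 runs with 533 genes, and the longest had 11. The second run held 8 genes on chr1:159770301-160039950, FCRL6, SLAMF8, C1orf204, CCDC19, TAGLN2, IGSF9, LINC01133 and KCNJ10, at 1.07 to 1.49. The third held 7 genes on chr11:117298488-118023603, from DSCAML1, a cell adhesion gene of neurons (1.35), through TMPRSS13 (1.4), IL10RA, the interleukin 10 receptor (1.30), and TMPRSS4 (1.31) to SCN4B (1.31). Runs of 5 included BTNL2 with HLA class II genes on chr6:32361116-32714975 (BTNL2, HLA-DRA, HLA-DRB9, HLA-DQA1 and HLA-DQA2, at 1.10 to 1.67). Another joined GPR139, GP2, UMOD, PDILT and ACSM5 on chr16:20039561-20452658 (1.07 to 1.27), of which UMOD encodes the kidney protein uromodulin. Neighbors can share 1 stretch of chromatin, so the genes of a run are not independent. TAGLN2 (1.67) and SCN4B (1.36) had H3K4me3 2-fold above input, and the other genes of their runs were at most at 0.13.

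Secreted ligands had a median of -0.20 and immune genes one of -0.006, against -0.56 over all genes. Among signalling ligands 16 of 104 (15.4%) were 2-fold above input, against 6.71% of all genes. The highest growth factor genes were FGF3 (2.07), GDF6, which acts in joints and eye (2.02), GDF10 (1.75) and WNT2 (1.48), and the lowest were BMP4 (-1.90) and INHA (-1.41). BMP4, with 36 H3K27me3 and 199 input counts in MAK683, had an H3K4me3 ratio of 3.96. WNT7A (1.38) and WNT5A (1.05) were above as well, and FGF9 was at 1.12. Interleukin genes had 7 of 28 above, among them IL10 (1.76), IL9 (1.72), IL22 (1.54) and IL17A (1.31), and IL11 (-1.30) and IL27 (-1.30) were below. Of 15 chemokine ligand genes CXCL6 was above (1.47). HLA genes had 5 of 15 above with HLA-DQA2 (1.67) and HLA-DRA (1.38) in front, and HLA-DMA, which loads peptides onto class II molecules, was lowest (-0.94). Of 9 Toll-like receptor genes TLR2 was above at 1.27, and no interferon gene of 22 had enough input counts.

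Of 278 genes for neural membrane proteins 35 (12.6%) were 2-fold above input, against 6.71% of all genes. The median of the 278 was -0.065 in MAK683 and -0.006 in DMSO. Potassium channels had 16 of 83 above, led by KCNA3 (2.40), KCNA2 (1.65), KCNK16 (1.60) and KCNK17 (1.54), while KCNJ2 (-1.61) was below with H3K4me3 at 2.79. Receptors for serotonin, dopamine and adrenaline had a median of 0.66 and 5 of 20 above, with DRD1 (1.99), HTR3A (1.63), DRD2 (1.31) and ADRA1A (1.19) in front. Long genes were measured with little counting error, and several of them stood at 2-fold. GRIK3, a kainate receptor gene of 239 kb, was at 1.4 (1.34 to 1.46), PLXNA4, a semaphorin receptor gene of 525 kb, at 1.41 (1.37 to 1.45), and CACNA1C, a calcium channel gene of 727 kb, at 1.07 (1.03 to 1.11). Their DMSO ratios were 1.75, 1.70 and 1.47. GRM6 was an exception in the other direction, at 1.03 (0.58 to 1.5) after MAK683 and -0.36 in DMSO, with 98 and 70 counts in MAK683 and 62 and 70 in DMSO. Its H3K4me3 was also 2-fold above input (1.07). No gene of the 17 neurexins, neuroligins and contactins reached 2-fold, although NRXN3 stood at 0.63 (0.60 to 0.66) over 1700 kb.

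Of 158 matrix and adhesion genes 12 (7.59%) were 2-fold above input, a share close to the 6.71% of all genes. Their median, however, was -0.15 against -0.56 over all genes. The counting interval lay wholly above input for 18 of 43 collagen genes and 16 of 37 MMP and ADAMTS genes. It did so for 7 of 25 integrins, 5 of 23 classical cadherins and 23.2% of all genes. COL6A3 (1.33), COL4A1 (1.29), COL4A2 (1.20) and COL15A1 (1.04) were above among 43 collagen genes. LAMA4 (1.10) was above among 12 laminins, ITGA8 of the kidney mesenchyme (1.02) among 25 integrins, and ADAMTS8 (1.59), ADAMTS15 (1.44), MMP2 (1.06) and ADAMTS18 (1.04) among 37 MMP and ADAMTS genes. COL11A1 (-1.10) and LAMC1 (-0.76) were below input. PCDH8, a protocadherin with roles in somites and synapses, had the largest excess of the adhesion lists at 2.52 (2.16 to 2.92) and 2.98 in DMSO.

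A list of 30 genes of secreted senescence factors, matrix and related regulators followed the study, although its main text names neither MET nor COL4A6. Of the 30 genes 25 had enough input counts. Of these 25, 8 (32.0%) were 2-fold above input, against 6.71% of all genes. The genes that the study names were chosen on these cells, and the study describes many of them as high in H3K27me3. The list is therefore independent evidence of neither a level above input nor a direction. Its median was 0.79 in MAK683 and 1.06 in DMSO, and 21 of 25 genes were lower in MAK683. IGFBP3, which binds insulin-like growth factors (chr7:45951844-45961473), was highest at 1.99 (1.72 to 2.29), with 393 and 144 counts in MAK683 and 632 and 117 in DMSO, where it was at 2.24 (1.96 to 2.54). Its H3K4me3 ratio was 1.20 in MAK683 and 0.17 in DMSO. GATA4 (1.60), GBP1 (1.29), COL4A1 (1.29), TBX3 (1.23), COL4A2 (1.20), GATA3 (1.18) and MMP2 (1.06) were the others above. IGFBP5 (0.80), MET (0.81), DSG2 (0.79), FRAS1 (0.82) and ITGA2 (0.91) lay between input and 2-fold. IL6, with 50 and 69 counts, was at 0.09 (-0.47 to 0.63), and IL1B was at 0.44 (0.04 to 0.84). CCL25 was the only gene of the list at least 2-fold below input (-1.10). The interval lay wholly below input for 3 of the 25 genes. Besides CCL25 these were FBN1 at -0.83 (-0.92 to -0.74), with -0.99 in DMSO, and COL4A4 at -0.11 (-0.21 to -0.01).

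Housekeeping and chromatin genes marked the low end. Only 3 of 320 (0.938%) were 2-fold above input and 88 (27.5%) were 2-fold below, against 6.71% and 10.1% of all genes. Protein-coding genes as a whole had 5.57% above and a median of -0.66. Short genes pass 2-fold below more often: 21.6% of protein-coding genes of 5 to 10 kb did, and 17.7% of those of 10 to 20 kb. Median lengths in these lists ran from 8.03 kb (clustered histone genes) to 59.8 kb (PRC2 subunits). The part of length in the share below was not tested. The median of the 320 was -0.80 against -1.08 in DMSO, with an H3K4me3 median of 1.52. None of 53 ribosomal protein genes, 37 proteasome genes, 67 respiratory chain genes or 42 splicing factor genes was above. The 3 genes above were CCNA1, a cyclin of the germ line (1.86), and the SWI/SNF genes DPF3 (1.17 over 285 kb) and SMARCA2, one of the 2 ATPase genes of the complex (1.10, interval 1.02 to 1.17, and 1.30 in DMSO). None of 14 PRC2 genes was above. EZH2 was at -0.41 (-0.56 to -0.25) with 535 and 1040 counts in MAK683 and at -1.25 (-1.42 to -1.09) with 442 and 926 in DMSO. EZH1 was at -0.93, EED at -1.24 and SUZ12 at -1.32 in MAK683, and all of them except SUZ12 were lower in DMSO. The lowest protein-coding genes with at least 50 MAK683 input counts were RPL8 (-3.38), UROD (-2.90), PTOV1 (-2.46), SLC50A1 (-2.37) and ALKBH7 (-2.35). All 5 are short, 2.46 to 10.0 kb, had 4 to 10 H3K27me3 counts and had H3K4me3 ratios of 2.45 to 4.13. RPL8, with 4 and 70 counts in MAK683, had 42 and 34 in DMSO (0.12), and its input share was 0.81 higher in MAK683 on the log2 scale.

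Numbered ZNF genes, most of which encode DNA-binding zinc finger proteins, had a median above that of all genes in MAK683 and below it in DMSO. Of 431 genes 7 (1.62%) passed 2-fold, among them ZNF488 (1.51), ZNF840 (1.48), ZNF831 (1.43) and ZNF423 (1.18), and 26 (6.03%) were 2-fold below. Over all genes these shares were 6.71% and 10.1%. The list median was -0.33 (-0.39 to -0.28), 0.24 above the median of all genes, and in DMSO it was -0.87, 0.12 below. A higher ratio in MAK683 than in DMSO was found for 375 of 431 (87.0%), against 12761 of all 21263 genes. Some other lists shared this direction. Lower in MAK683 were 6 of 45 S phase and mitosis, 9 of 42 splicing factor and 16 of 67 respiratory chain genes, against 40.0% of all genes. Proteasome genes (13 of 37 lower) and ribosomal protein genes (19 of 53) were near the share of all genes. Clustered histone genes went the other way, with 6 of 9 lower. The DMSO medians of these lists lay between -1.151 and -1.03, and their MAK683 medians stayed below that of all genes. The MAK683 interval lay wholly above the DMSO interval for 193 ZNF genes (44.8%) and wholly below for 6 (1.39%), against 3290 (15.5%) and 1581 (7.44%) of all genes. On chromosome 19, where 198 of these genes lie, the median was -0.24 in MAK683 and -0.85 in DMSO, and the interval was higher for 115 (58.1%). The 227 on other chromosomes had medians of -0.47 and -0.91, and 74 intervals were higher (32.6%). All 1087 genes of chromosome 19 together had -0.62 and -0.83, with 189 intervals higher (17.4%). The input share of the ZNF genes differed by a median of 0.00 between treatments, and their H3K4me3 median after MAK683 was 0.80. The split by chromosome was made after the values were seen. Clustered protocadherins, with only 6 of 55 genes measurable, also had a higher ratio in MAK683 at every gene (median -0.21 against -1.11).

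Among noncoding genes with at least 50 MAK683 input counts, LINC00682 was the highest at 2.64 (2.32 to 3.00), with 386 and 90 counts in MAK683 and 523 and 71 in DMSO (2.68). TBX5-AS1 (2.28) lies beside TBX5 (1.41), which encodes a T-box factor. CCDC140 (2.21), classed as noncoding in the annotation, AMER2-AS1 (2.14) and FZD10-AS1 (2.08) came next, and CCDC140 stood at 3.31 in DMSO. The input share of CCDC140 was 0.7 higher in MAK683 on the log2 scale, and the part of this in the difference was not tested. LINC genes had 54 of 415 above (13%) with a median of -0.06, and antisense genes had 25 of 310 above (8.06%) with a median of -0.46. The antisense share was close to the 6.71% of all genes. Strand-specific reads do not arise in ChIP-seq, so reads over an antisense gene cannot be separated from those of an overlapping partner.

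The genes above input included CpG-rich and CpG-poor promoters. The CpG count of a window from 250 bases upstream to 50 bases downstream of the start was used, with 12 CpG as the limit between CpG-rich and CpG-poor, a limit set after the data were seen. Of 11586 CpG-rich protein-coding genes 509 (4.39%, interval 4.03 to 4.78) were 2-fold above input, and of 3194 CpG-poor genes 315 (9.86%, 8.85 to 10.9). The medians over all genes of the classes were -0.71 and -0.20. Among the genes above input the H3K27me3 ratio was similar, with medians of 1.24 for the CpG-rich and 1.19 for the CpG-poor, and their DMSO medians were 1.56 and 1.42. H3K4me3 differed: 104 of the 509 CpG-rich genes (20.4%) but 9 of the 315 CpG-poor genes (2.86%) also had H3K4me3 2-fold above input, with medians of -0.12 and -0.59. Both shares were below those of the whole classes, which were 35.4% for all CpG-rich and 7.29% for all CpG-poor genes. Of the 45 protein-coding homeobox genes above input 42 were CpG-rich, against 93 of all 112 on the list, and of the 15 keratin genes above 1 was, against 3 of all 45.

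Over all 21263 genes, 22.6% had H3K4me3 at least 2-fold above input after MAK683, and of the 1427 genes above in H3K27me3 144 (10.1%) did. Of these 144, 83 also had H3K4me3 2-fold above input in DMSO, and of the 113 that were protein-coding with a window, 92.0% were CpG-rich. This share is close to the 94.6% of all 4330 protein-coding genes with H3K4me3 2-fold above input. The homeobox list contributed 24 of them. TLX3, with 214 H3K27me3, 424 H3K4me3 and 53 input counts in MAK683, had ratios of 2.54 and 2.97. NEUROD2 had 2.04 and 3.17, SOX4 had 1.84 and 3.89, and HOXD13 had 2.29 and 3.06. The H3K4me3 of HOXD13 was 1.28 in DMSO, while that of NEUROD2 was 2.98 and that of TLX3 was 2.95. Both modifications were counted over whole genes in a population of cells, so whether they lay on the same nucleosomes cannot be told apart from their presence in different cells or in different segments of a gene. Across genes H3K27me3 and H3K4me3 over the same MAK683 input had a Spearman rho of -0.43. This correlation shares its denominator.

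**Figure D5:**
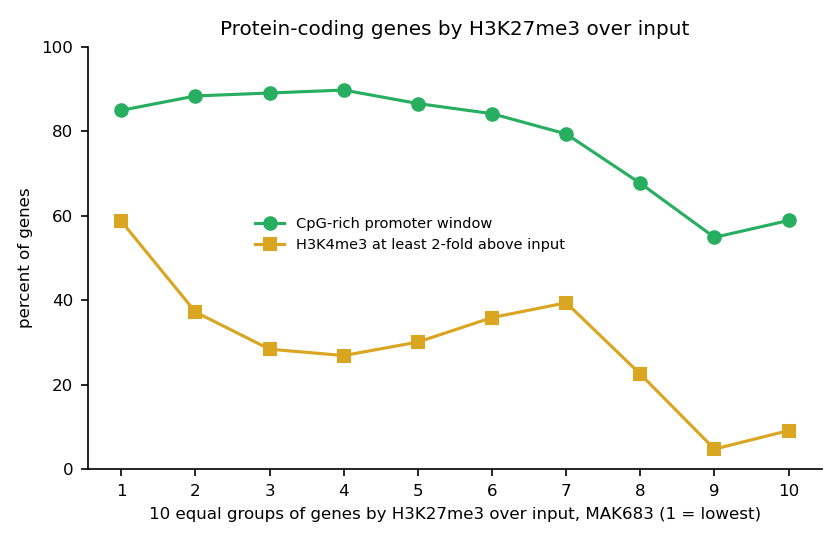
Percent of protein-coding genes (vertical axis) with a CpG-rich promoter window and with H3K4me3 at least 2-fold above input in MAK683, in 10 equal groups of genes ordered by H3K27me3 over input in MAK683 (horizontal axis, 1478 genes each). CpG-rich windows fall from 85.0% in the lowest group to 58.9% in the highest, and H3K4me3 goes from 58.7% to 9.13%, with a second rise to 39.4% in group 7 and its lowest value of 4.74% in group 9.

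The share of genes above input differed between classes of gene length without a steady order. Of 512 protein-coding genes of up to 5 kb, 64 (12.5%) were 2-fold above and 154 (30.1%) 2-fold below, and their median counting half-width was 0.65. Of 2746 genes of 50 to 100 kb 106 (3.86%) were above and 152 (5.54%) below, with a half-width of 0.17. The share rose to 4.83% of 1948 genes of 100 to 200 kb and to 7.16% (79 of 1103) for 200 to 500 kb, where the median was -0.08 and the interval lay wholly above input for 503 (45.6%). Of the 314 genes over 500 kb 14 (4.46%) were above and 0 below, but the median was 0.12 and the interval lay wholly above input for 173 (55.1%). The shortest class thus had the largest shares past 2-fold in both directions, and the longest class the largest share of intervals wholly above input. Between chromosomes the share of genes above ranged from 0.775% (3 of 387, interval 0.16 to 2.25) on chromosome 22 to 10.6% (42 of 398, 7.71 to 14.0) on chromosome 13. Chromosomes 21 (1.06%, 2 of 188, 0.129 to 3.79), 19 (2.12%) and 17 (2.28%) were low and chromosomes 10 (10.1%), 18 (9.84%) and 6 (9.64%) high. The same order of ends was seen in DMSO, where chromosome 22 had 2.58% and chromosome 13 had 15.3%. Of the 21263 genes, 5044 had no position in the annotation under their name, and 448 of these (8.88%) were above input, with a median of -0.15. The results by position therefore cover 76.3% of the genes.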

How the data were processed

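H3K27me3, H3K4me3 and input ChIP-seq of G401 cells in DMSO or MAK683 were used, 1 library each. The authors trimmed reads with Trim Galore 0.4.4, aligned them with Bowtie2 to hg19, processed them with Picard 2.23.6 and deposited whole-number read counts per gene from featureCounts. The Drosophila spike-in factors that the methods describe were not used here, and division by library totals removes any single factor per library. The gene annotation used for counting is not given in the sources used here. Counts were divided by library totals (13308099 to 21281877), and log2 ratios to input used a pseudocount of 0.05 CPM. Counting intervals are exact at 95%. Medians have binomial rank intervals. Positions and promoters came from GENCODE release 44 on GRCh37, matched by symbol for 33477 genes and by an older symbol from RefSeq for 1771. The computation was tested on simulated data. The genes and 55 gene lists were chosen with earlier results of these data known. Named genes were the 10 highest and 5 lowest protein-coding genes and the 5 highest noncoding genes with at least 50 MAK683 input counts, the 5 highest genes with at least 1000, the 4 highest and 2 lowest of each list with at least 20, PRC2 core genes, SMARCB1, the 5 longest runs, the genes nearest the limit and the list of the study. Alternatives varied the pseudocount, scale, denominator, limits and gene set (Python 3.11.15, numpy 2.4.6, pandas 2.3.3, scipy 1.17.1, matplotlib 3.10.9).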

Additional observations from a re-analysis of the deposited data

Results flagged for a closer look

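The MAK683 and DMSO ratios of H3K27me3 to input had opposite signs, with counting intervals on opposite sides of input, at 2 of the genes named by rank in their lists. The difference between treatments was not tested for either, since each treatment had 1 library. PCDHB7, a clustered protocadherin on chromosome 5, was at 0.78 (0.19 to 1.39) in MAK683 with 53 H3K27me3 and 45 input counts, and at -1.08 in DMSO with 41 and 77. Its input share was lower in MAK683 (-0.97 on the log2 scale), and the part of this in the result was not tested. CDH20, a classical cadherin on chromosome 18, was at 0.19 (0.11 to 0.27) in MAK683 with 2330 and 2996 counts, and at -0.09 in DMSO with 2802 and 2621. Its input share differed by -0.02.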

How the results depend on the processing

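With 1 library per group, no library could be left out and no value has a replicate error. No paired analysis was possible because each group holds a single library and no test between groups was made. The alternatives for runs, promoters and the overlap with DMSO were added after seeing the data. Genes at least 2-fold above input numbered 1427, and 4050 with the median ratio set to 1, 2611 with at least 20 and 402 with at least 1000 summed input counts, 948 on autosomes, 875 with at least 50% of the span unshared, 3367 at 1.5-fold and 709 at the bound of the counting interval. Genes 2-fold below input numbered 2142, and 180 with the median set to 1, 3891 and 281 with limits of 20 and 1000, 10300 at 1.5-fold, 212 at the bound and 1049 under a pseudocount of 1 CPM. The median of -0.564 became -0.51 with 1 CPM, 0.0 by construction with the median set to 1, -0.488 and -0.575 with limits of 20 and 1000, -0.649 on autosomes and -0.651 with unshared spans. The share of DMSO-high genes also above in MAK683, 57.6%, became 54.2 (1 CPM), 77.9 (median set to 1), 63.8 (both inputs summed), 50.4 (limit of 1000), 59.9 (autosomes) and 59.7 (unshared). The CpG-rich share of protein-coding genes above, 61.8%, became 57.0 with the median set to 1, 57.2 with a limit of 20 and 73.0 with one of 1000. Genes in runs numbered 228, and 1311 with the median set to 1, 437 with a limit of 20 and 28 with one of 1000. Of 51 lists with at least 6 genes, 41 had a median above that of all genes, and 23 of 31 did so with the limit of 1000. The HOX list moved from 1.03 above to -0.054 relative to all genes with a limit of 20 (9 and 21 genes). With that limit the lineage bHLH list moved from 0.176 (17 genes) to 1.664 (38). With the limit of 1000, keratins moved from 1.298 (45 genes) to 0.171 (2), GATA genes from 0.776 (6) to 2.171 (1), ribosomal protein genes from -0.234 (53) to 0.733 (2) and nicotinic and muscarinic receptors from -0.018 (17) to 0.467 (3). Apart from HOX, no list whose median lay at least 0.5 from that of all genes changed sign. The autosomal and unshared settings also leave out the 5044 genes without a position, so that 15714 and 14437 genes remain. Of the genes above that the autosomal setting lost, 448 had no position and 31 were on chromosome X. Fewer genes or another zero point enter by construction under the limits and the rescaling, and for the others the cause was not tested.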
